A study of Mus musculus with 22 samples.

Results

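Heavy chain variable (Ighv) segments are the germline V elements of the antibody heavy chain locus. They were taken here as every listed gene whose symbol is Ighv followed by a digit. This gave 110 of 37669 listed genes in large Pro-B cells, 116 of 37851 in large Pre-B cells and 151 of 26095 in small Pre-B cells, 156 different segments of 41814 genes in all, of which 95 were listed at all 3 stages. The number after Ighv is the family, and 16 families were present. Of the 156 segments, 118 are typed as V segments and 37 as V segment pseudogenes by RefSeq (assembly GRCm38.p6), and 1 (Ighv1-13-1, listed in small Pre-B cells only) matched no entry. The locus lies on the minus strand of chromosome 12, and its Ighv genes in GENCODE M21 (GRCm38, the same assembly as the mm10 build of the files) span chr12:113572927-116010093, from Ighv5-1 at the end nearest the D segments to Ighv1-86 at the far end.

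Adult tet-LIN28B mice and their control littermates gave 22 RNA-seq libraries of sorted marrow B cell precursors, from 15 animals. The tet-LIN28B mice carried a tetO-driven, Flag-tagged human LIN28B cDNA at Col1a and the rtTA-M2 transactivator at Rosa26, each on 1 allele. Controls carried Rosa26 rtTA-M2 alone, and both genotypes ate chow with 200 mg/kg doxycycline for 10 days, so the agent and the transactivator were shared by all groups. Lineage-depleted CD93+ IgM- cells were sorted as cKIT+ Pro-B or cKIT- Pre-B cells and by forward scatter as large or small. Large Pro-B cells gave 4 control and 5 tet-LIN28B libraries, large Pre-B cells 3 and 4, and small Pre-B cells 3 and 3. The large Pro-B and large Pre-B libraries of 7 mice came from the same animal, and these carry the same replicate number at both stages below.

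During B cell development the RAG recombinase joins 1 D and 1 J segment of the heavy chain locus and then 1 V segment to the joined DJ, at the Pro-B stage. A heavy chain that pairs with the surrogate light chain forms the pre-B cell receptor, after which large Pre-B cells divide and small Pre-B cells rearrange a light chain. Family Ighv5 and family Ighv2 lie mostly near the D segments, and family Ighv1 (J558) fills the distal part of the locus. Transcripts of unrearranged V segments are also known, and the rows analysed here count any transcript that holds the segment, rearranged in frame or not.

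The segments on which the small Pre-B comparison turned are shown first, since V segments resemble each other and reads can be assigned only through the bases that differ. Each stretch holds the last 300 bases of the V exon, the exon that encodes the variable domain, read 5′ to 3′ from the GENCODE M21 transcript. Capitals mark bases that differ from the segment with the most similar transcript. Ighv3-6 and Ighv13-2 rose in tet-LIN28B small Pre-B cells under all 19 alternatives tried, Ighv1-20 had the largest fold change among the 11 segments called, Ighv1-81 and Ighv8-8 made up less of the Ighv signal, and Ighv5-2 (VH81X) is the segment known for frequent use in fetal and Pro-B cells.
Ighv3-6, chr12:114288152-114288451: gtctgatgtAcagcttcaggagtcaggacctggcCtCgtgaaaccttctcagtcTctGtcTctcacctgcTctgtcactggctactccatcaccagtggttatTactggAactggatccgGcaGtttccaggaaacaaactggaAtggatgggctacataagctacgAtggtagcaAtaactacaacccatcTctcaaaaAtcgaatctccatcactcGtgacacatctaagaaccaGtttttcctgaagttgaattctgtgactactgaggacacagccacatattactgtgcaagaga
Ighv13-2, chr12:114357759-114358058: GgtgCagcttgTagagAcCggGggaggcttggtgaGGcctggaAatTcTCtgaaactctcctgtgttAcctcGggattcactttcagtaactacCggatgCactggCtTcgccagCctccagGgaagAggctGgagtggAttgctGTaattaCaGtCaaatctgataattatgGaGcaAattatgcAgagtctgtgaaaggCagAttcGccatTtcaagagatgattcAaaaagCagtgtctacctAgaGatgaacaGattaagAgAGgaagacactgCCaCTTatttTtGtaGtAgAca
Ighv1-20, chr12:114723772-114724071: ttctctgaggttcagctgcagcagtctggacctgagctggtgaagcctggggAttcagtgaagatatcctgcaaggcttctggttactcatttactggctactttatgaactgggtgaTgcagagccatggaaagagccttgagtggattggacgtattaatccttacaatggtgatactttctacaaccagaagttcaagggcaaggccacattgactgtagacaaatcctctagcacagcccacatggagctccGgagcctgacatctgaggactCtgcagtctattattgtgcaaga
Ighv1-81, chr12:115920279-115920578: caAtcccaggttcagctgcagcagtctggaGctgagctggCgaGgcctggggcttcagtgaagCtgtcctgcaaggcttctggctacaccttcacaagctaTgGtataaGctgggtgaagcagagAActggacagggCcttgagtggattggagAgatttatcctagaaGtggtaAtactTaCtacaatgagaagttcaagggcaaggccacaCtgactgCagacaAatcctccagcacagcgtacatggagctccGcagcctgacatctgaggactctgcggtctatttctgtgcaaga
Ighv8-8, chr12:115294062-115294361: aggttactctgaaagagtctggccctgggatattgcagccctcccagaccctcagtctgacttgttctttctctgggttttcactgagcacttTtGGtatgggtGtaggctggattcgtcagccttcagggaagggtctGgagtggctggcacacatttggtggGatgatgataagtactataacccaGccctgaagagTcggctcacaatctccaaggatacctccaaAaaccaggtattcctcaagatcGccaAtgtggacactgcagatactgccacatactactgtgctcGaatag
Ighv5-2, chr12:113578504-113578803: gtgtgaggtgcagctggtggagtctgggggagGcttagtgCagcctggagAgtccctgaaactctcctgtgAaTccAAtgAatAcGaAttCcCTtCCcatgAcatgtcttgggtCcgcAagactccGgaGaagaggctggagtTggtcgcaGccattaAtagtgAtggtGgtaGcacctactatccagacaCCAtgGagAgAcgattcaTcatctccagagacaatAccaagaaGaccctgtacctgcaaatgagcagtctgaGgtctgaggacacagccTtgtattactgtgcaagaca
The nearest transcript was Ighv3-1 for Ighv3-6 (91.7% identity over the shorter transcript, 18 marked bases), Ighv6-3 for Ighv13-2 (79.8%, 54 marked bases) and Ighv1-37 for Ighv1-20 (98.6%, 4 marked bases). It was Ighv1-85 for Ighv1-81 (92.9%), Ighv8-5 for Ighv8-8 (96.1%) and Ighv5-6 for Ighv5-2 (87.3%). Of the stretches of 50 bases within a transcript, 96.7% were found in no other Ighv transcript for Ighv3-6, 100% for Ighv13-2 and 62.3% for Ighv1-20.

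The other 8 segments that rose in small Pre-B cells are shown by the last 45 bases of the V exon, where the V segment is joined to D. Capitals mark TACTGTG, the embedded heptamer that is known from V segment replacement, which Ighv6-6 lacks in this window.
Ighv5-4, chr12:113597446-113597490: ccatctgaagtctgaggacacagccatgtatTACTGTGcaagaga
Ighv5-9, chr12:113661769-113661813: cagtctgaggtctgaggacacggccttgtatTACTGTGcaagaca
Ighv2-5, chr12:113685482-113685526: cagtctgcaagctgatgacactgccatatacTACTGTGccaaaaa
Ighv7-3, chr12:114153180-114153224: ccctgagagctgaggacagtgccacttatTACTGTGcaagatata
Ighv6-6, chr12:114434788-114434832: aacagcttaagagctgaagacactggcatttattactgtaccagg
Ighv1-2, chr12:114469075-114469119: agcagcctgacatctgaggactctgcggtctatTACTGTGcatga
Ighv1-26, chr12:114788372-114788416: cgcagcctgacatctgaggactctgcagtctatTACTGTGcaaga
Ighv1-39, chr12:114914599-114914643: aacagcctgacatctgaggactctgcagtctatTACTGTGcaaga
The heptamer was searched in these last 45 bases on both strands. It was present on the coding strand of 8 of the 11 segments that rose (72.7%), of 72 of the 113 segments tested in small Pre-B cells (63.7%) and of 96 of all 183 GENCODE Ighv genes (52.5%), and on the other strand of 0 genes.

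Libraries held 13899691 to 23261528 reads in large Pro-B cells, 19864000 to 30437872 in large Pre-B cells and 32004733 to 50991949 in small Pre-B cells. The Ighv rows took very different parts of them. They held 55 to 289 reads a library in large Pro-B cells, 546 to 1948 in large Pre-B cells and 40935 to 66698 in small Pre-B cells. A floor of 3 reads therefore corresponded to a share of 1.04% to 5.45% of the Ighv signal in large Pro-B libraries, 0.154% to 0.549% in large Pre-B libraries and less than 0.01% in small Pre-B libraries. Lin28b, the row nearest to the human transgene, was listed at 0 in the 3 control small Pre-B libraries and at 81.9 to 230.2 normalized counts in the 3 tet-LIN28B ones. It was also higher in every tet-LIN28B library than in every control library of the large stages, at 57.0 to 232.1 against 4.63 to 10.2 in large Pro-B cells and 41.9 to 175.3 against 9.92 to 28.8 in large Pre-B cells, although limma's adjusted p was under 0.05 in small Pre-B cells only (7.7e-05, against 0.290 and 0.452). Kit, the gate of the Pro-B sort, was at 396.1 to 1701 normalized counts in large Pro-B libraries and at 9.92 to 51.9 in large Pre-B libraries.

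Genes of antibody-secreting cells were present in the large Pre-B libraries. Igha was at 1886 to 23464 normalized counts and Jchain at 485.3 to 3783, both highest in control replicate 2. Jchain was at 4.65 to 22.5 in small Pre-B libraries and at 0 to 278.4 in large Pro-B libraries. Other genes of the plasma cell list did not follow this order. Prdm1 was at 6.04 to 61.6 in large Pre-B and 85.1 to 326.5 in small Pre-B libraries. Sdc1 was at 1252 to 2330 and 1914 to 7054 in the same 2 stages. Large Pro-B libraries held transcripts of the list as well. Ighg2b was at 3951 to 8089 in all of them, against 2181 to 8530 in large Pre-B libraries. Others varied among the large Pro-B libraries. Igha was at 0 to 2076 in large Pro-B cells, highest in tet-LIN28B replicate 5. Ighg2c was at 970.3 in control replicate 4 and at 1172 and 1519 in tet-LIN28B replicates 2 and 3. All 10 genes of the plasma cell list were above 0 in some library of every stage, so this was not particular to large Pre-B cells. The sum of the list was 10075 to 46187 in control and 9330 to 26778 in tet-LIN28B large Pre-B libraries. In large Pro-B libraries it was 6404 to 9595 in controls and 7415 to 10157 in tet-LIN28B. The part of these genes in the Ighv values of both stages was not tested. In small Pre-B cells the same list summed to 6844 to 8140 in controls and 2671 to 3274 in tet-LIN28B libraries. Most of this was Sdc1, at 5679 to 7054 and 1914 to 2134, and its part in the Ighv values was not tested either. Myeloid genes also differed among control libraries, with sums of the 6 listed genes of 131.0 to 5899.9 in control and 73.2 to 133.6 in tet-LIN28B large Pre-B libraries and of 306.2 to 1907 and 373.3 to 425.4 in small Pre-B libraries. The 4 cycling genes of small Pre-B libraries summed to 3094 to 3433 in controls and 3499 to 5375 in tet-LIN28B libraries, and the 5 erythroid genes to 22.5 to 57.7 and 68.4 to 94.3. Neither overlapped between genotypes, and their part in the Ighv values was not tested. The summed Pro-B, Pre-B and mature B lists overlapped at all 3 stages, but some members did not. In small Pre-B cells Il2ra was at 10210 to 10907 in controls and 4504 to 5252 in tet-LIN28B. Kit was lower too, at 42.8 to 56.4 and 2.72 to 33.8. Igkc was higher, at 61750 to 68183 in controls and 75047 to 82858 in tet-LIN28B, as was Dntt, at 21.4 to 68.1 and 80.3 to 154.8. Rag1, Igll1 and Ighd overlapped. The part of these members in the Ighv values was not tested. The 6 T cell genes summed to at most 64.0 normalized counts in any library.

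The first question was whether tet-LIN28B changed the amount of Ighv transcript. In small Pre-B cells it was higher. The summed Ighv signal was 41796, 44259.6 and 40165 normalized counts in the control libraries and 46955, 51847 and 52059 in the tet-LIN28B libraries. The groups did not overlap, and the mean was 19.5% higher in tet-LIN28B (50287 ± 2887 against 42074 ± 2061, SD, n = 3 each). As part of the library the Ighv rows made up 0.116% to 0.128% in controls and 0.131% to 0.149% in tet-LIN28B. Whether this is more RNA per cell or more cells with such a transcript cannot be told apart in bulk samples.

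Ighm, the constant region to which a rearranged V segment is joined in these cells, moved by the same proportion. It was at 497069, 504385 and 506228 normalized counts in the controls and at 615853, 619881 and 565007 in tet-LIN28B small Pre-B libraries, 19.4% higher in the mean. In the limma fit over all genes its log2 fold change was 0.26 ± 0.07 (SE, adjusted p = 0.0326). The ratio of Ighv to Ighm overlapped between genotypes. Per 100 normalized counts of Ighm there were 8.41, 8.77 and 7.93 of Ighv in controls and 7.62, 8.36 and 9.21 in tet-LIN28B. Kappa light chain transcripts were higher in these libraries too, also without overlap. The summed Igkv segments were at 25050 to 28094 in controls and 28994 to 33131 in tet-LIN28B. Igkc was at 61750 to 68183 and 75047 to 82858. A higher signal was thus not particular to Ighv and Ighm.

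**Figure D1:**
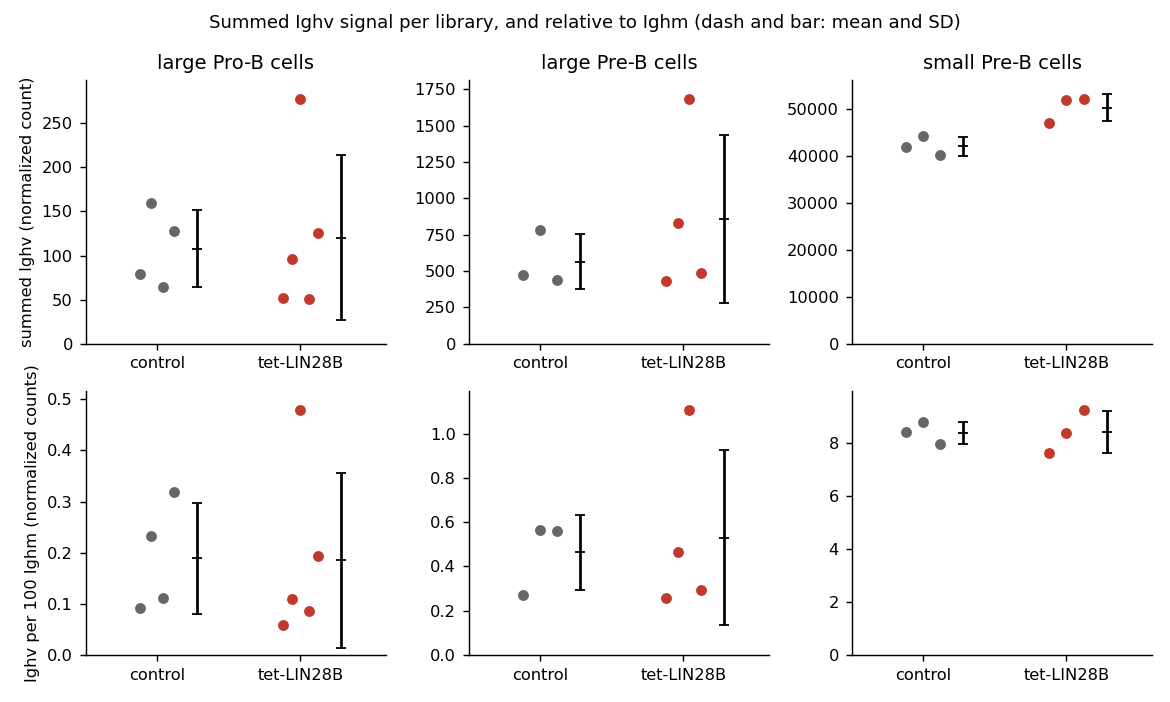
Summed Ighv normalized count (top) and Ighv per 100 normalized counts of Ighm (bottom) in every library, by stage and genotype; each point is a library, the dash and bar are the mean and SD, and each panel has its own axis from 0. Only in small Pre-B cells do all tet-LIN28B libraries lie above all controls in the top row, and there the ratio to Ighm overlaps.

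In the large stages the amount of Ighv transcript overlapped between genotypes. In large Pre-B cells it was 474.5, 781.5 and 439.2 normalized counts in the controls and 431.5, 834.2, 1682 and 485.4 in tet-LIN28B libraries. In large Pro-B cells it was 79.1, 159.7, 64.6 and 127.6 in the controls and 51.5, 96.3, 277.1, 50.3 and 125.4 in tet-LIN28B. The highest library of both stages, tet-LIN28B replicate 3, came from the same mouse.

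Relative to Ighm there was far less Ighv signal in the large stages, at 0.059 to 0.478 per 100 of Ighm in large Pro-B cells and 0.256 to 1.11 in large Pre-B cells. Other animals gave the small Pre-B libraries and the 3 tables were normalized separately, so stage, mouse and processing cannot be told apart here. Between the large stages the 7 shared mice allow a comparison within the animal. The Ighv share of the library was higher in large Pre-B than in large Pro-B cells in 7 of 7 mice, by 5.41- to 12.5-fold, and the ratio to Ighm was higher in 7 of 7.

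The second question was which single segments changed. In small Pre-B cells 113 of the 151 segments reached 10 normalized counts in 3 libraries and were tested with limma on log2(normalized count + 1), with Benjamini-Hochberg adjustment over all 14664 genes tested. Of these 113, 11 rose and 0 fell at an adjusted p under 0.05, beside 7.34% of all genes that rose and 7.03% that fell. At an unadjusted p under 0.05, 36 segments were higher and 0 lower, beside 4252 of the 14664 genes in either direction. edgeR called 9 segments higher and 0 lower, beside 994 genes higher and 1024 lower of 14664. DESeq2 called 17 and 0 of 114 segments, beside 1340 genes higher and 1295 lower of 15048. Fold changes were positive for 97 of the 113, with a median log2 fold change of 0.27 (range -0.84 to 1.49) against -0.0024 over all genes tested. In 42 of the 113 every tet-LIN28B library was above every control library, and in 0 it was the other way, beside 17.7% and 16.2% of all genes tested. The other 38 segments, 11 of them at 0 in every library, were not tested.

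Ighv3-6 had the smallest adjusted p. It was at 1053, 1137 and 1014 normalized counts in the controls and at 1589.6, 1800.3 and 1713 in tet-LIN28B libraries, with no overlap. Its log2 fold change was 0.67 ± 0.09 (SE, limma adjusted p = 0.00127), a 1.59-fold difference. Of the 7 segments of family Ighv3 all had a positive fold change, and the other 6 did not pass the test.

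Ighv13-2, the only listed member of its family at this stage, was at 431.8, 466.0 and 401.1 in the controls and at 788.5, 710.4 and 696.0 in tet-LIN28B. The groups were well apart, and the log2 fold change was 0.76 ± 0.12 (SE, limma adjusted p = 0.00251). These 2 segments kept their call in all 19 alternatives tried, with the highest adjusted p at 0.0161 for Ighv3-6 and 0.0230 for Ighv13-2.

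Ighv1-20 had the largest fold change among the segments called, at a low level. It was at 53.0, 53.0 and 61.1 normalized counts in the controls and at 89.4, 122.4 and 155.7 in tet-LIN28B (log2 fold change 1.09 ± 0.27, limma adjusted p = 0.0226). All 3 tet-LIN28B libraries were above the controls, and they differed among themselves by more than the controls did. As shown above, Ighv1-20 differs from Ighv1-37 in few bases, so the division of reads between the pair is uncertain.

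Ighv5-9 was at 338.7, 485.5 and 294.0 in the controls and at 610.4, 691.7 and 545.8 in tet-LIN28B (log2 fold change 0.75 ± 0.18, adjusted p = 0.0234). Ighv1-2, a pseudogene by RefSeq type, was at 407.6, 336.3 and 278.0 in the controls and at 566.0, 516.5 and 512.3 in tet-LIN28B (0.66 ± 0.15, adjusted p = 0.0195). Ighv2-5 was at 139.6, 170.8 and 158.7 in the controls and at 225.3, 257.2 and 222.7 in tet-LIN28B (0.59 ± 0.17, adjusted p = 0.0452). None of the 3 overlapped between genotypes.

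Ighv6-6 was at 402.0, 487.6 and 446.2 in the controls and at 533.6, 661.6 and 684.3 in tet-LIN28B (0.49 ± 0.14, adjusted p = 0.0392). Ighv1-39 was at 327.6, 342.7 and 310.9 in the controls and at 434.4, 444.9 and 468.0 in tet-LIN28B (0.46 ± 0.12, adjusted p = 0.0342). Ighv7-3, also typed as a pseudogene, was at 484.9, 527.6 and 534.5 in the controls and at 599.1, 742.5 and 719.6 in tet-LIN28B (0.41 ± 0.12, adjusted p = 0.0479). These too were apart in all libraries, and all are limma values on the log2 scale with SE.

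Ighv5-4 took the largest mean share of the Ighv signal at this stage and rose by less than all but 1 of the 11. It was at 2045, 1883.5 and 1865 normalized counts in the controls and at 2314, 2617 and 2609 in tet-LIN28B (log2 fold change 0.38 ± 0.08, limma adjusted p = 0.0131). Ighv1-26 was at 1276, 1415 and 1168 in the controls and at 1576, 1627 and 1650.0 in tet-LIN28B (0.33 ± 0.09, adjusted p = 0.0360). Both groups were apart for both segments.

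**Figure D2:**
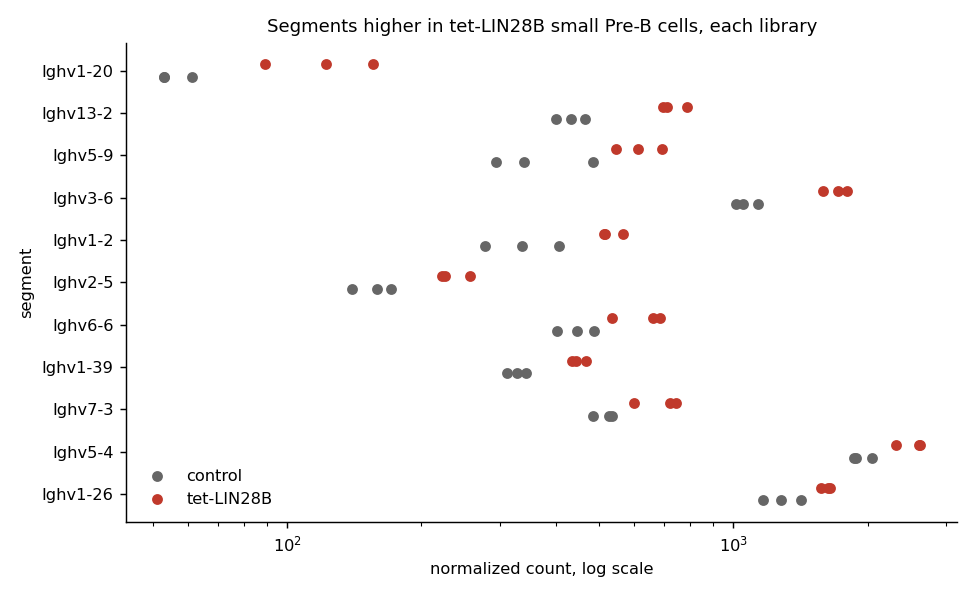
Normalized count (log axis) of the 11 segments that rose in tet-LIN28B small Pre-B cells, 1 point for each of the 3 control and 3 tet-LIN28B libraries. For every segment shown all red points lie to the right of all grey points.

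The calls outside Ighv3-6 and Ighv13-2 were sensitive to single libraries. Leaving out 1 library left 4, 5 and 2 segments called without control replicates 1, 2 and 3, and 6, 4 and 6 without tet-LIN28B replicates 1, 2 and 3. Ighv5-4 kept its call in 4 of the 6 such fits (adjusted p up to 0.0582), Ighv1-2 in 3 (up to 0.0698), Ighv5-9 in 2 (up to 0.0875), Ighv1-20, Ighv1-26, Ighv6-6 and Ighv7-3 in 1 each, and Ighv1-39 and Ighv2-5 in 0.

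Since the summed Ighv signal itself was higher, the fit was repeated with each Ighv row divided by the summed Ighv signal of its library, which tests the usage of a segment within the locus. This fit was chosen after seeing the data. Of the 113 segments 2 then rose and 2 fell, and 60 had a positive fold change. Ighv3-6 (log2 0.41 ± 0.08, limma adjusted p = 0.00748) and Ighv13-2 (0.50 ± 0.12, adjusted p = 0.0230) were again higher. Ighv1-81 (-0.35 ± 0.09, adjusted p = 0.0346) and Ighv8-8 (-0.31 ± 0.09, adjusted p = 0.0485) were lower, and Ighv8-8 is named because of this value. Divided by Ighm instead, Ighv3-6 (adjusted p = 0.0161) and Ighv13-2 (adjusted p = 0.0169) were called and 0 segments fell.

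The shares of these 4 segments did not overlap between genotypes. Ighv3-6 made up 2.52%, 2.57% and 2.52% of the Ighv signal in controls and 3.39%, 3.47% and 3.29% in tet-LIN28B. Ighv13-2 made up 1.03%, 1.05% and 1.00% in controls and 1.68%, 1.37% and 1.34% in tet-LIN28B. Ighv1-81 made up 2.26%, 2.31% and 2.27% in controls and 1.70%, 1.73% and 1.95% in tet-LIN28B, and Ighv8-8 2.01%, 2.16% and 2.22% against 1.69%, 1.74% and 1.72%. Their normalized counts overlapped between genotypes, at 912.1 to 1022 against 799.0 to 1013 for Ighv1-81 and 838.5 to 958.0 against 792.7 to 902.2 for Ighv8-8.

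**Figure D3:**
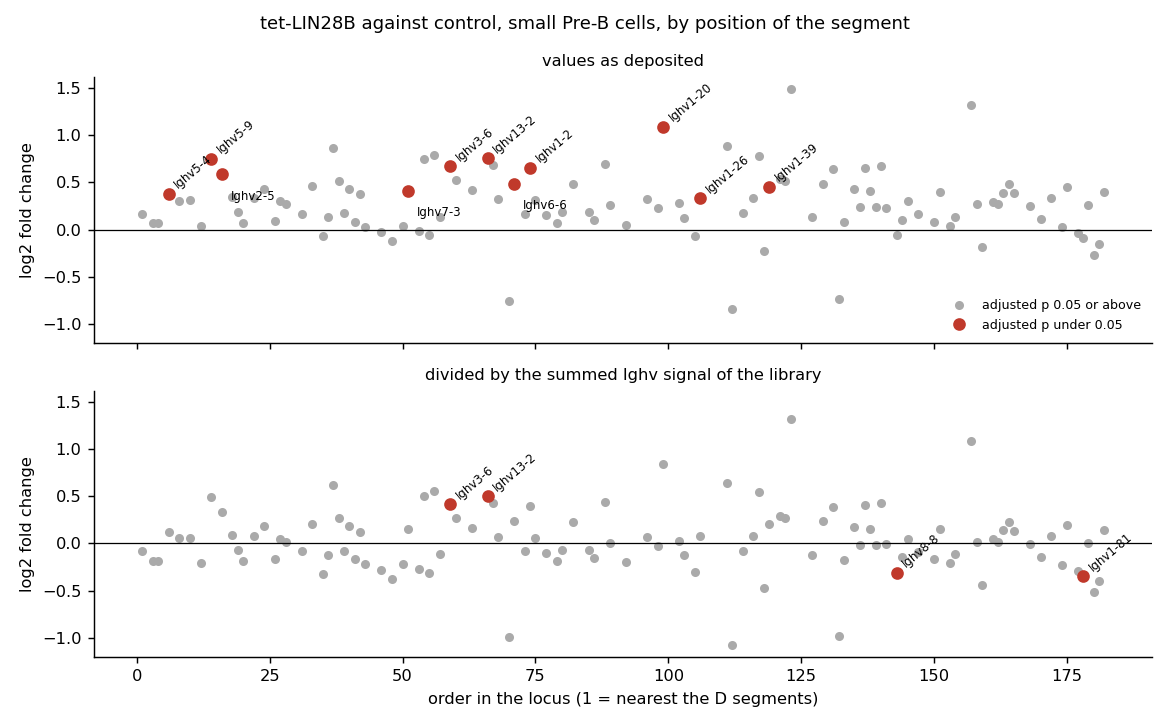
Log2 fold change of tet-LIN28B against control small Pre-B cells for the tested segments, placed by their order in the locus (1 is nearest the D segments). In the top panel values are as deposited and 11 segments (red) pass the test, all above 0; in the bottom panel values are divided by the summed Ighv signal, where Ighv3-6 and Ighv13-2 are above 0 and Ighv1-81 and Ighv8-8 below.

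By position along the locus, when the 183 GENCODE Ighv genes were divided into 3 equal parts by order, 5 of 39 tested segments rose in the part nearest the D segments, 6 of 34 in the middle part and 0 of 40 in the distal part, beside 7.34% of all genes. Every tet-LIN28B library was above every control library for 11, 19 and 12 segments of these parts, and the difference between the parts was not tested. Median log2 fold changes were 0.27, 0.32 and 0.26 in the same order. The distal part made up 35.8% of the control and 34.5% of the tet-LIN28B Ighv signal, as means over libraries. By type, 9 of 102 tested V segments and 2 of 11 tested pseudogenes rose, beside the same 7.34% of all genes. Pseudogene rows made up 3.21% to 3.39% of the Ighv signal in controls and 3.61% to 3.89% in tet-LIN28B.

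By family, 4 of 57 tested segments rose in Ighv1 and 2 of 10 in Ighv5, beside 7.34% of all genes. In Ighv2, Ighv3, Ighv6, Ighv7 and Ighv13, which had 8, 7, 3, 3 and 1 tested members, 1 each rose. The shares of the largest families overlapped between genotypes. Ighv1 made up 49.2%, 49.9% and 50.2% of the Ighv signal in controls and 49.6%, 47.7% and 50.2% in tet-LIN28B, and Ighv5 16.5% to 18.2% against 17.1% to 19.5%. Ighv2 and Ighv5 together, the families nearest the D segments, made up 19.1% to 20.5% in controls and 19.5% to 22.1% in tet-LIN28B.

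Of the 16 families 6 did not overlap between genotypes in their share, 3 in each direction. For the level of single genes, tet-LIN28B libraries were all above the controls in 17.7% of all tested and all below in 16.2%. Ighv3 made up 3.16%, 3.19% and 3.04% in controls and 4.21%, 4.14% and 3.97% in tet-LIN28B, and most of this was Ighv3-6. Ighv13 is given above by its single segment, and Ighv6 was at 3.18% to 3.47% against 3.51% to 3.59%. Ighv9 was lower, at 6.27%, 6.56% and 6.72% in controls and 5.70%, 5.49% and 5.86% in tet-LIN28B. Ighv14 was lower too, at 3.64%, 3.60% and 3.37% against 2.92%, 3.01% and 3.15%, and Ighv8 was at 4.00% to 4.35% against 3.60% to 3.89%. No test was made of these shares. No segment of Ighv9 or Ighv14 passed the test, and the signal of both families was at least as high in tet-LIN28B, at 2859 against 2741 normalized counts for Ighv9 and 1524 against 1489.5 for Ighv14.

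**Figure D4:**
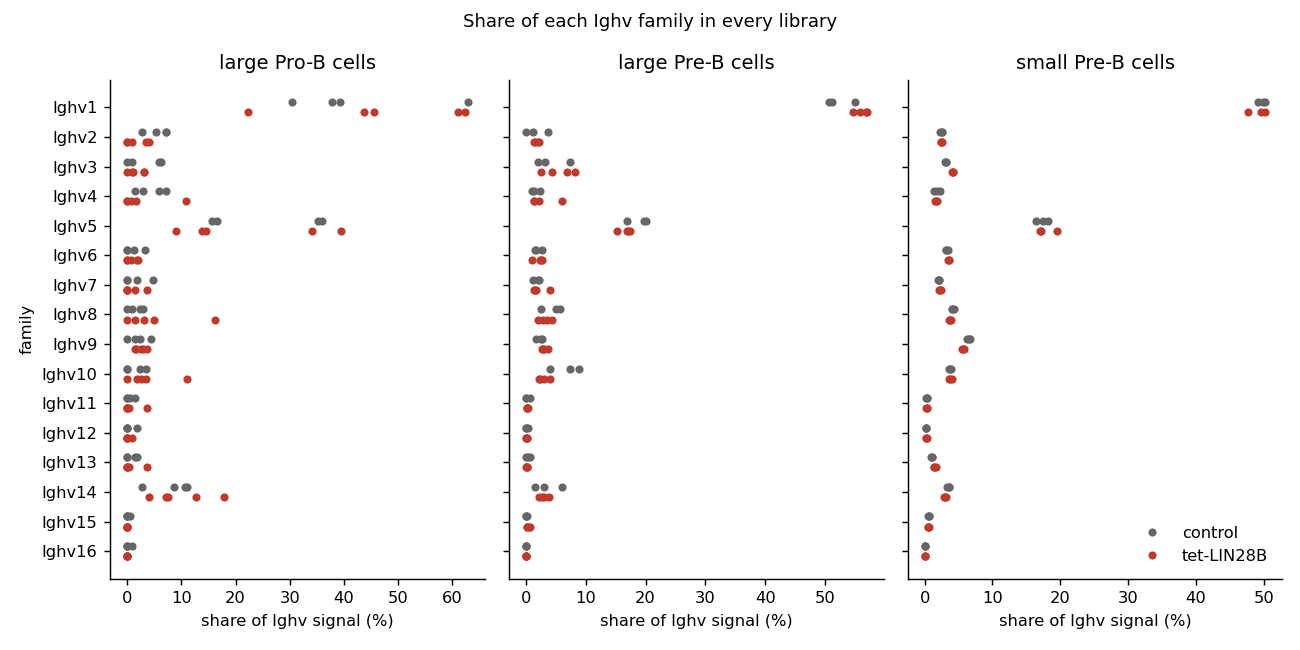
Share of each of the 16 Ighv families in the Ighv signal of every library, by stage; each point is a library. In small Pre-B cells the points of a family lie close together and Ighv3 is apart between genotypes (3.04% to 3.19% against 3.97% to 4.21%), while in large Pro-B cells Ighv1 runs from 22.2% to 62.9%.

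How many segments shared the signal was alike in both genotypes. The effective number of segments, the exponential of the Shannon entropy of the shares, was 65.3, 65.8 and 64.4 in control and 66.7, 65.5 and 65.3 in tet-LIN28B small Pre-B libraries. Reads fell on 128 to 132 segments in controls and 131 to 133 in tet-LIN28B. The 10 most used segments held 32.9% of the signal in controls and 33.7% in tet-LIN28B. They were the same 10 when levels were divided by transcript length, and the quartiles of the tested transcripts' lengths were 351 and 377 bases.

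Per kilobase of transcript, Ighv9-3 was highest in small Pre-B cells at 5536 normalized counts, followed by Ighv5-4 at 5228, Ighv1-64 at 4744, Ighv1-26 at 4137 and Ighv3-6 at 3956, as means of the genotypes. Ighv9-3 was at 1830, 2021 and 1895 normalized counts in controls and 1828, 1923 and 2162 in tet-LIN28B (limma log2 fold change 0.04, adjusted p = 0.811). Ighv1-64 was at 1683.5, 1872 and 1935 against 1943, 1998 and 2096, without overlap (0.14, adjusted p = 0.297). Ighv1-72, known as V186.2 from the response to the hapten NP, was at 1047, 1350.4 and 1379 against 1437, 1808 and 1686 (0.39, adjusted p = 0.0667), and shares almost its whole sequence with Ighv1-62-3 (99.2% identity, 7.49% of its stretches of 50 bases found nowhere else among Ighv transcripts). Ighv1-55 was at 1241, 1241 and 1109 against 1395, 1226 and 1647 (0.24, adjusted p = 0.197).

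Segments known from fetal-type and B-1a cells were examined by name. Ighv5-2 was at 803.1, 813.1 and 635.9 normalized counts in control and 685.7, 1022.5 and 686.1 in tet-LIN28B small Pre-B cells, and overlapped (log2 fold change 0.07, limma adjusted p = 0.824). Ighv11-2 and Ighv12-3 are known from B-1a cells that bind phosphatidylcholine. Ighv11-2 was at 122.8, 107.0 and 65.8 against 154.2, 148.3 and 83.3 (0.38, adjusted p = 0.473). Ighv12-3 was at 77.2, 104.9 and 74.2 against 107.0, 174.2 and 134.9 (0.68, adjusted p = 0.103), higher in each tet-LIN28B library than in each control but not past the threshold. Ighv6-3 was at 1015, 915.8 and 807.8 against 1102.5, 1138 and 1175 (0.32, adjusted p = 0.0655).

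In large Pre-B cells 22 of the 116 segments were tested and 0 were called in either direction, beside 0.0424% of 14155 genes that rose and 0.0141% that fell. At an unadjusted p under 0.05 limma had 0 segments higher and 0 lower, edgeR 1 and 0, and DESeq2 (48 segments tested) 4 and 0, with 0 called by either. Over all genes, such a p was found for 930 of 14155 with limma, 952 of 14155 with edgeR and 1581 with DESeq2. The median log2 fold change of the 22 was 0.66 and 17 were positive. In 1 of the 22, Ighv8-12, every tet-LIN28B library was above every control library, beside 3.59% of all genes tested.

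The libraries of this stage differed more from each other than the genotypes did. Ighv1-64 made up 11.0%, 8.33% and 11.5% of the Ighv signal in controls and 16.1%, 4.42%, 5.70% and 7.32% in tet-LIN28B. The highest of these was 88 of 546 reads, with a 95% Wilson interval of 13.3% to 19.4% that covers counting error only. Ighv1-55 made up 3.88%, 3.91% and 15.5% in controls and 5.86%, 4.49%, 7.44% and 3.51% in tet-LIN28B. Ighv3-6 was at 9.92, 4.61 and 29.5 normalized counts in controls and 13.4, 64.5, 109.6 and 12.1 in tet-LIN28B (log2 fold change 1.47 ± 0.84, limma adjusted p = 0.754), so its groups overlapped at this stage.

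Ighv5-4 was at 20.5, 18.4 and 29.5 normalized counts in control large Pre-B cells and 26.9, 44.3, 83.7 and 24.9 in those of tet-LIN28B mice (0.80 ± 0.55, adjusted p = 0.769). Ighv5-17 was at 18.4, 21.9 and 28.2 against 18.2, 24.8, 41.4 and 19.9 (0.13 ± 0.55, adjusted p = 0.970). Ighv13-2 did not reach the minimum, with 0 to 5.76 normalized counts in any library. Ighv1 made up 50.7% to 55.0% of the signal in controls and 54.7% to 57.0% in tet-LIN28B, and Ighv5 16.9% to 20.0% and 15.2% to 17.5%. Ighv9 was the 1 family whose shares did not overlap at this stage, at 2.54%, 1.62% and 2.62% in controls and 2.75%, 2.83%, 3.75% and 3.07% in tet-LIN28B, from 15 to 73 reads a library. It was thus higher in tet-LIN28B here and lower in small Pre-B cells, and neither difference was tested. The effective number of segments was 44.9, 44.3 and 27.3 in controls and 38.6, 47.5, 49.9 and 43.5 in tet-LIN28B.

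In large Pro-B cells 0 of the 110 segments reached the minimum and none could be tested. Limma called 0 of 13776 genes at this stage, with 394 at an unadjusted p under 0.05. Without a minimum, edgeR called 0 of 105 segments and DESeq2 0 of 104, with 1 higher and 1 lower, and 1 higher and 0 lower, at an unadjusted p under 0.05.

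Single segments held large parts of the few reads. Apart from ties, the most used segment differed from library to library among the 9. It was Ighv1-19 in tet-LIN28B replicate 5 with 28 of 100 reads (28%, 95% Wilson interval 20.1% to 37.5%) and Ighv1-74 in tet-LIN28B replicate 3 with 47 of 289 (16.3%, 12.5% to 21.0%). It was Ighv5-12 in control replicate 2 with 28 of 207 (13.5%, 9.53% to 18.9%) and Ighv14-4 in tet-LIN28B replicate 2 with 17 of 117 (14.5%, 9.27% to 22%). In the other 5 libraries the leading segment had 5 to 12 reads. It was Ighv1-81, Ighv1-72 and Ighv5-4 in controls and Ighv5-9-1 and Ighv14-2 in tet-LIN28B. In control replicate 1, Ighv1-81 tied with Ighv1-72 and Ighv14-2 at 5 reads. In tet-LIN28B replicate 1, Ighv5-9-1 tied with Ighv5-4 at 9 reads. The highest Igha of this stage was in tet-LIN28B replicate 5, and its part in the Ighv reads was not tested.

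The family shares of large Pro-B cells spread widely within a genotype. Ighv1 made up 62.9%, 30.4%, 39.3% and 37.8% in controls and 45.5%, 22.2%, 62.3%, 43.6% and 61.0% in tet-LIN28B, and Ighv5 15.7%, 35.3%, 16.7% and 36.0% against 39.4%, 34.2%, 13.8%, 14.5% and 9.0%. All 16 families overlapped between genotypes. The effective number of segments was 27.6 to 35.0 in controls and 18.9 to 35.2 in tet-LIN28B.

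Within the 7 mice with both large stages, Ighv5-2 took a smaller share of the Ighv signal in large Pre-B than in large Pro-B cells. Its share was lower in large Pre-B cells in 7 of 7 mice, at 4.29%, 5.31% and 5.95% in the control large Pro-B libraries and 1.49%, 0.737% and 0.146% in the large Pre-B libraries of the same mice. In tet-LIN28B mice it was at 9.09%, 8.55%, 5.88% and 1.82% and then at 1.10%, 0.828%, 0.821% and 0.293%. The large Pro-B shares rest on 1 to 17 reads. VH81X heavy chains are known to pair poorly with the surrogate light chain. In small Pre-B cells, from other mice, the share was 1.32% to 1.97%.

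Other segments that were frequent at 1 of these stages differed as well, and since they are named for being frequent there, the counts are a description. Ighv14-2 made up 0.901% to 10.9% in the 9 large Pro-B libraries and 0.207% to 0.916% in the 7 large Pre-B libraries, lower in 7 of 7 mice. Family Ighv14 as a whole was lower in 7 of 7. Ighv3-6 and Ighv1-64 were higher in large Pre-B cells in 7 of 7 mice, as was family Ighv3. Ighv1 was higher in 5 of 7 and Ighv5 in 4 of 7, so neither differed in 1 direction in all mice.

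**Figure D5:**
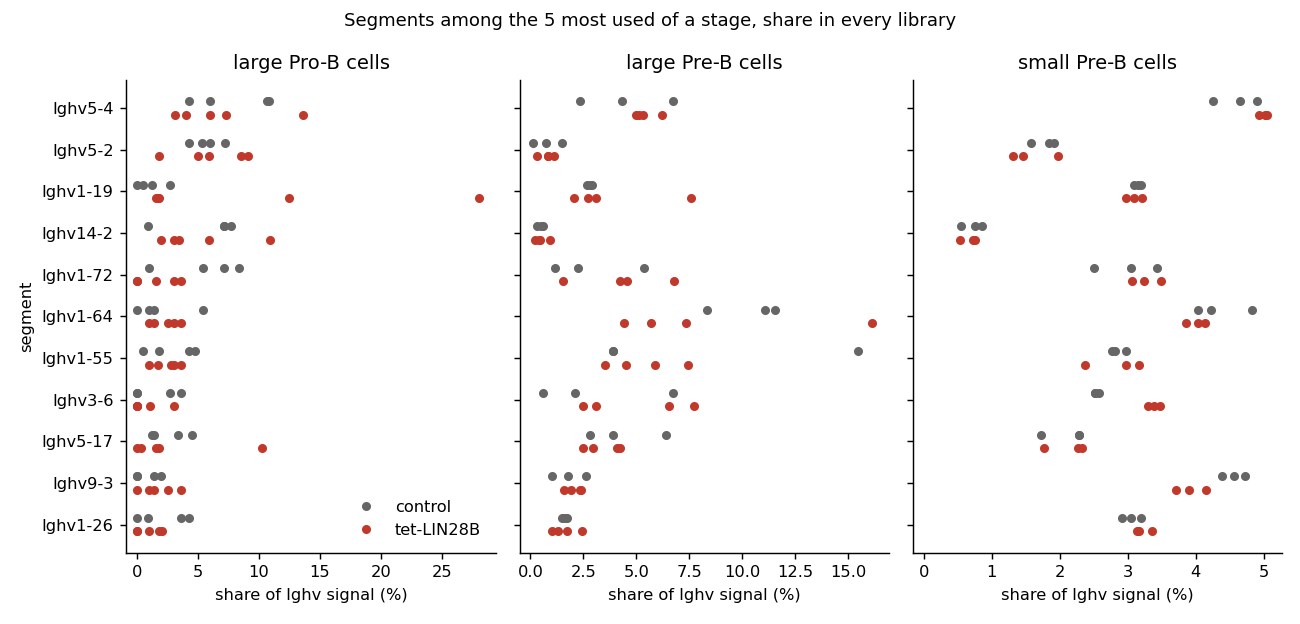
Share of the Ighv signal, in every library, of the 11 segments that were among the 5 most used at 1 or more stages; each point is a library and each stage has its own axis. Ighv5-2 lies between 1.82% and 9.09% in large Pro-B cells and between 0.146% and 1.49% in large Pre-B cells, and Ighv3-6 is apart between genotypes in small Pre-B cells.

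Whether the genotype effect differed between stages could be tested for few segments. In the fit over all 22 libraries with the mouse as a random block, 11830 genes passed the minimum in all 3 tables and 0 Ighv segments were among them. In a fit on the large and small Pre-B tables alone, chosen after seeing the data, 22 segments were among 12263 genes. Of these 22 segments 0 differed at an adjusted p under 0.05, beside 0.00815% of all genes tested at the same threshold. At an unadjusted p under 0.05 there was 1 (Ighv14-4, log2 difference -1.76 ± 0.78, limma adjusted p = 0.598). The share of all genes at that unadjusted p is not given here, so this count has no background beside it. A call in small Pre-B cells and none in large Pre-B cells therefore does not show that the stages differ.

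Of 41 genes that act on the heavy chain locus or in V(D)J recombination, 39 were tested in small Pre-B cells, of which 4 rose and 6 fell, with a median log2 fold change of 0.07, beside 7.34% of all genes that rose and 7.03% that fell at this stage. Pou2f2, the Oct-2 factor that binds the octamer of V promoters, rose, with 1939 to 2176 normalized counts in controls and 3649 to 4159 in tet-LIN28B (0.93 ± 0.08, limma adjusted p = 0.000136). Cd79b, the signalling partner of the heavy chain at the surface, rose (0.43 ± 0.06, adjusted p = 0.00186). Polm, a polymerase of end joining, fell (-0.52 ± 0.06, adjusted p = 0.000419), and Wapl, which releases cohesin from chromatin, fell, with 573.0 to 874.8 in controls and 239.6 to 383.7 in tet-LIN28B (-1.14 ± 0.20, adjusted p = 0.00532). The other 6 called, named after their values were seen, were Ighm and Hmgb2, which rose, and Ebf1, Ikzf1, Ezh2 and Rag2, which fell. Of the 37 genes tested in each large stage 0 were called, with 6 genes of all tested rising and 2 falling in large Pre-B cells and 0 in large Pro-B cells.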

How the data were processed

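RNA from sorted cells was made into SMART-Seq v4 and Nextera XT libraries, which do not mark strand, so sense and antisense reads cannot be told apart. Per the submitters' processing notes, the tools named were STAR 2.7.1, RSEM 1.28 and DESeq2 with the mm10 build, and no source used here gives the annotation. Libraries were sequenced on NextSeq and NovaSeq instruments without a statement of which library ran on which. The authors deposited 1 table of normalized counts for each stage, estimated counts divided by size factors (a signal unit, not raw counts). The deposited tables' columns of fold changes and p-values were not used.

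Whole reads were recovered from the deposited signal (at least 99.9994% of values whole within 0.1 read). Because values were normalized, limma 3.58.1 (R 4.3.3, empirical Bayes with trend) on log2(normalized count + 1) was the main test in place of a count test, so fold changes of low genes are understated. Genes needed 10 normalized counts in as many libraries as the smaller group, with Benjamini-Hochberg adjustment over all genes of a stage and a threshold of 0.05. edgeR 4.0.16 and DESeq2 1.42.0 on recovered reads, other pseudocounts, filters, scalings, a replicate block and leaving out each library were alternatives. The pipeline was tested on simulated data. Replicates were separate mice within a stage. Libraries held 13899691 to 50991949 reads, and intervals cover counting error only. Identity between transcripts was computed with edlib 1.3.9.post1 (Python 3.11.15).

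Segments and lists were chosen with earlier results of these data known. The named segments are those called, the 5 with the highest mean share at each stage, the most abundant of any library, and Ighv5-2, Ighv11-2, Ighv12-3, Ighv6-3 and Ighv1-55 by name, with the 4 called pathway genes of smallest adjusted p. Ighv8-8, Ighv8-12 and the stage difference of Ighv14-4 are given because of their values.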

Additional observations from a re-analysis of the deposited data

Results flagged for a closer look

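A sample far from the others of its group was looked for in 48 groups of values with Dixon's test at the 95% level. Chance passes this level in about 5% of groups of normal values, and low counts need not be normal. The test flagged 7, all in the large stages and all in tet-LIN28B libraries. Large Pre-B controls and both small Pre-B groups had only 3 libraries, where this test needs a larger gap. The stage and genotype of the flagged libraries are therefore not read as a result. In large Pro-B cells Ighv1-74 was at 45.1 normalized counts in tet-LIN28B replicate 3 with the next library at 2.74, and Ighv14-2 was at 16.3 in the same library with the next at 5.49. Ighv14-4 was at 14 in tet-LIN28B replicate 2 with the next at 0.959. In large Pre-B cells the most abundant segment held 16.1% of the Ighv signal in tet-LIN28B replicate 1 with the next library at 8.20%. Replicate 3 of tet-LIN28B, which had the most Ighv reads of the stage, was far above the others for Ighv1-39 (31.1, next 2.13), Ighv7-3 (62.2, next 8.06) and Ighv9-3 (39.7, next 13.2). The part of this mouse's larger Ighv signal in these values was not tested.

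The share of family Ighv9 in the Ighv signal differed in opposite directions at the Pre-B stages. Its mean was 0.839 percentage points higher in tet-LIN28B in large Pre-B cells and differed by -0.831 in small Pre-B cells, with every tet-LIN28B library on the same side of every control library at each stage. The difference between the stages was not tested.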

How the results depend on the processing

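The 11 segments called higher in small Pre-B cells became 6 with every library scaled to the same total, 17 with DESeq2, 2 with Ighv rows per summed Ighv, 2 per Ighm and 2 to 6 with 1 library left out, and the segments called lower became 2 per summed Ighv. The remaining alternatives gave 8 to 14. The replicate numbers do not pair the samples (correlations of same-numbered libraries from -0.19 to 0.43), and the replicate block gave 8 segments in small Pre-B cells and 0 in large Pre-B cells. Family shares depended on single segments. The genotype difference of Ighv1 in large Pre-B cells, 3.81 percentage points, was 0.107 with only the segments that passed the minimum and 7.29 without the most abundant segment of each library. For Ighv2 and Ighv5 together it was -2.08 and became 1.95 with only the segments that passed. In small Pre-B cells the Ighv1 difference of -0.588 became 1.20, and that of Ighv2 and Ighv5 went from 0.544 to -2.92, without the most abundant segment. The segment left out was not the same in every library. In small Pre-B cells it was Ighv5-4 in tet-LIN28B replicates 1, 2 and 3 and in control replicate 1. In control replicates 2 and 3 it was Ighv9-3 and Ighv1-64. The genotypes thus lost different segments in this setting. The cause of the changes was not tested. Of the named segments' values under alternatives, 710 kept their side of the threshold, 75 lost the call and 6 gained it. Direction was not kept by all. Ighv9-3 in small Pre-B cells had a slightly positive fold change as deposited. Its share of the Ighv signal was lower in tet-LIN28B, at 3.71% to 4.15% against 4.38% to 4.72% in controls. In large Pro-B cells most alternatives left no Ighv segment to test, and in the fit over 3 stages neither other pseudocounts, the fit without the mouse nor leaving out a library gave a value. Large Pro-B shares are limited by depth, since 3 reads were at least 1.04% of the signal.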
